A study of Rattus norvegicus with 9 samples.

Results

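Potassium channel genes were read in liver RNA from 9 rats as all rows of the normalised array table whose single gene symbol begins with Kcn. That rule gave 123 probe sets (groups of short oligonucleotides that read 1 transcript) for 77 genes, of 31042 probe sets and 14377 genes with a single symbol. All 77 gene identifiers carried the same symbol in the RefSeq annotation. There were 3 male Sprague-Dawley rats in each of 3 groups, with 1 array per rat. The vehicle group had no CCl4. The CCl4 group received intraperitoneal CCl4 in olive oil 2 times per week for 8 weeks to induce fibrosis. The CCl4+Rot group received the same CCl4 course and, from 2 weeks after its start, rottlerin at 2.5 mg/kg, a plant compound that opens BK channels and is also known as a kinase inhibitor. The purpose of the series was to see what fibrosis, and BK channel activation in fibrosis, do to liver gene expression. RNA came from whole frozen liver tissue, and the composition of the vehicle and the frequency of rottlerin dosing were not given in the sources used here.

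Potassium channels let potassium ions leave or enter a cell and so set its membrane voltage, which in turn steers calcium entry, contraction, secretion and volume. The BK channel is the large-conductance member that opens with both depolarisation and a rise in intracellular calcium. Its pore is encoded by Kcnma1, and beta subunits (Kcnmb genes) and leucine-rich-repeat gamma subunits shift its calcium and voltage sensitivity. In liver, potassium channels are known from hepatocytes, from bile duct cells and from the contractile stellate cells and vessels that surround the sinusoids.

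Each value below is a log2 signal as deposited, given by array in the order vehicle replicates 3, 4 and 5, CCl4 replicates 1, 2 and 3, and CCl4+Rot replicates 4, 5 and 6. Each signal comes with a detection call of present, marginal or absent, which says whether the matching oligonucleotides stood above their mismatched partners. A gene with several probe sets was read by the brightest one. Signals were compared between groups only within a probe set, because brightness differs between probes. All 7 hepatocyte marker genes measured were present on all 9 arrays, as the label liver requires, and all 5 striated muscle markers were present on none. Of 5 neuron markers 3 were present on no array, and of 6 pancreas markers 5. The remaining pancreas marker, Cela1, was present on 1 vehicle array. It gave 8.34, 9.70 and 9.90 in vehicle and 4.47 to 6.20 on the treated arrays, and the cause was not tested. CCl4 replicate 3 stood apart: 12714 probe sets were called present on it against 15550 to 16849 on the other arrays, while its median signal was 7.81 against 6.79 to 7.01. Results that rest on this array are given with and without it.

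Few potassium channel genes were detected in liver RNA. Called present on all 3 arrays of at least 1 group were 13 of the 77 genes (16.9%), against 63.4% of all genes. By group, 9 genes were detected in vehicle livers, 5 in CCl4 and 8 in CCl4+Rot, where of all genes 8450, 7327 and 8812 were. On CCl4 replicates 1 and 2 alone, 11 Kcn genes were present on both arrays, and 9032 of all genes. On all 9 arrays 2 genes were present, among them Kcnj8. A further 10 genes were present on 6 to 8 arrays, 21 on 1 to 5 arrays, and 44 (57.1%) on none, against 25.4% of all genes on none. Over probe sets the picture was the same, with 81 of 123 (65.9%) present on no array against 35.4% of all probe sets. A call of absent says that the probe set was not above its background and not that the gene is silent. In whole tissue, few cells with a channel and little RNA per cell cannot be told apart.

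**Figure D1:**
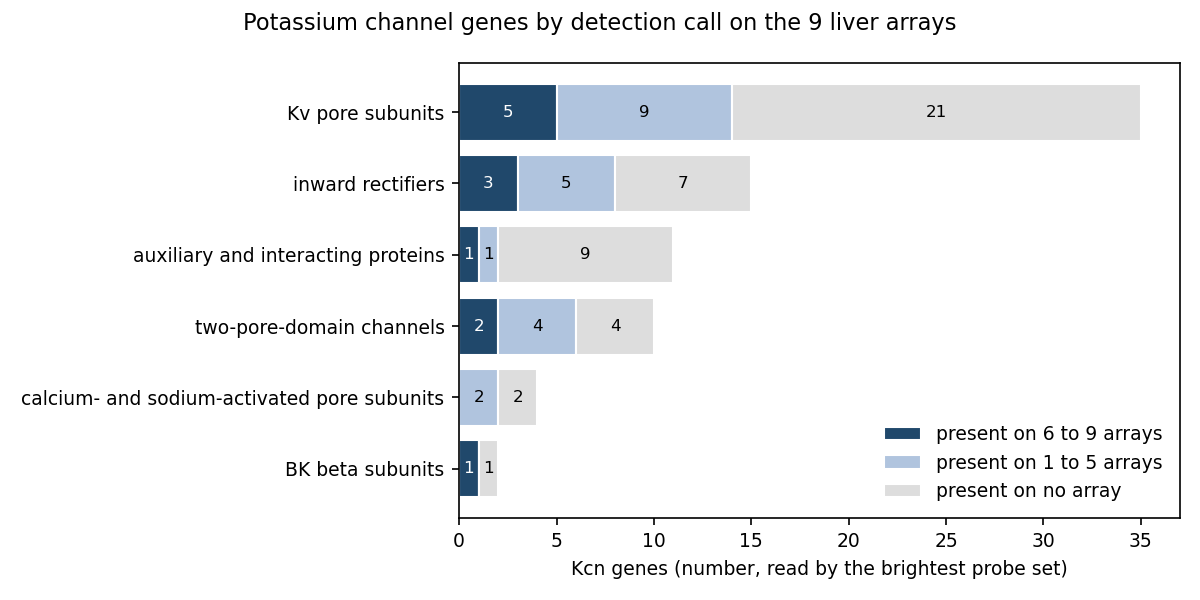
Number of Kcn genes per family (x axis) by the number of arrays with a present call: 6 to 9 arrays (dark), 1 to 5 (mid) and none (grey). The largest family, the voltage-gated pore subunits, had 5 of 35 genes present on 6 or more arrays and 21 on none.

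Every family had members on both sides of detection except the calcium- and sodium-activated pores. Of the 35 voltage-gated pore subunits, which open with depolarisation, 5 were present on 6 or more arrays, 9 on 1 to 5 and 21 on none. Of the 15 inward rectifiers, which hold the resting potential, the numbers were 3, 5 and 7, and of the 10 two-pore-domain background channels they were 2, 4 and 4. The 11 auxiliary proteins (Kcnab, Kcne and Kcnip genes) had 1 such gene, Kcne4, with 9 present on no array. Another probe set of Kcnab1, dimmer than the one that read the gene, was present on 8 arrays. No pore gene of the calcium- and sodium-activated family reached 6 arrays, with Kcnn4 and Kcnt1 on 1 to 5 arrays and Kcnma1 and Kcnn3 on none by their brightest probe set.

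Kcnma1, the BK pore gene and the target of rottlerin (chromosome 15 in the table), was read by 3 probe sets, and 26 of their 27 calls were absent. The brightest, 1370472_a_at, gave 5.53, 5.10 and 6.13 on the vehicle arrays, 4.62, 5.12 and 6.11 in CCl4 and 5.20, 5.13 and 5.03 in CCl4+Rot, absent on every array. These groups overlapped, and no fold change is given because neither side was measured. The probe set 1372929_at gave 4.37, 4.48 and 5.60 in vehicle rats, 3.80, 5.52 and 6.14 in CCl4 and 5.24, 4.48 and 3.53 in CCl4+Rot. Its only present call was on CCl4 replicate 2, and CCl4 replicate 1 lay below all vehicle arrays, so the groups overlapped again. The dimmest, 1369334_at, gave 2.86, 4.12 and 4.66 in vehicle livers, 3.83, 5.30 and 7.00 in CCl4 and 2.89, 1.68 and 3.60 in CCl4+Rot, absent on every array. On this probe set alone the CCl4+Rot signals lay below the CCl4 signals without overlap, in a range where the transcript was not above background. Which exons or splice forms the 3 probe sets read was not tested.

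Of the BK beta subunits, Kcnmb1 (chromosome 10) and Kcnmb4 (chromosome 7) had a probe set with a single symbol, and Kcnmb2 and Kcnmb3 were not analysed here. Kcnmb1, the subunit of vascular smooth muscle that raises calcium sensitivity, gave 3.05, 5.95 and 3.63 on the vehicle arrays, 3.32, 5.33 and 7.36 in CCl4 and 3.98, 4.17 and 3.83 in CCl4+Rot, and was absent on every array. Both the vehicle and the CCl4 arrays spread over more than the whole CCl4+Rot range. Of 6 smooth muscle marker genes in the same RNA, 3 (Smtn, Actg2 and Synpo2) were detected in at least 1 group, where 63.4% of all genes were. None was absent from all arrays, but Myh11 was present on 1 array, Cnn1 on 2 and Lmod1 on 3.

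Kcnmb4, the beta subunit best known from brain, was called present in a whole group, which neither Kcnma1 nor Kcnmb1 was. It gave 5.89, 6.48 and 6.78 in vehicle (marginal, marginal, present), 6.48, 6.33 and 7.70 in CCl4 (absent, present, present) and 6.34, 6.37 and 6.21 in CCl4+Rot, where all 3 were present. The 3 CCl4+Rot arrays lay close together (6.31 ± 0.083, SD, n = 3) inside the vehicle range (6.38 ± 0.454), and CCl4 replicate 3 alone lay above the rest. CCl4 exceeded vehicle by 0.45 (SE 0.394, limma adjusted p = 0.655) and CCl4+Rot differed from CCl4 by -0.53 (SE 0.394, limma adjusted p = 0.784). Without CCl4 replicate 3 these differences were 0.02 and -0.10.

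**Figure D2:**
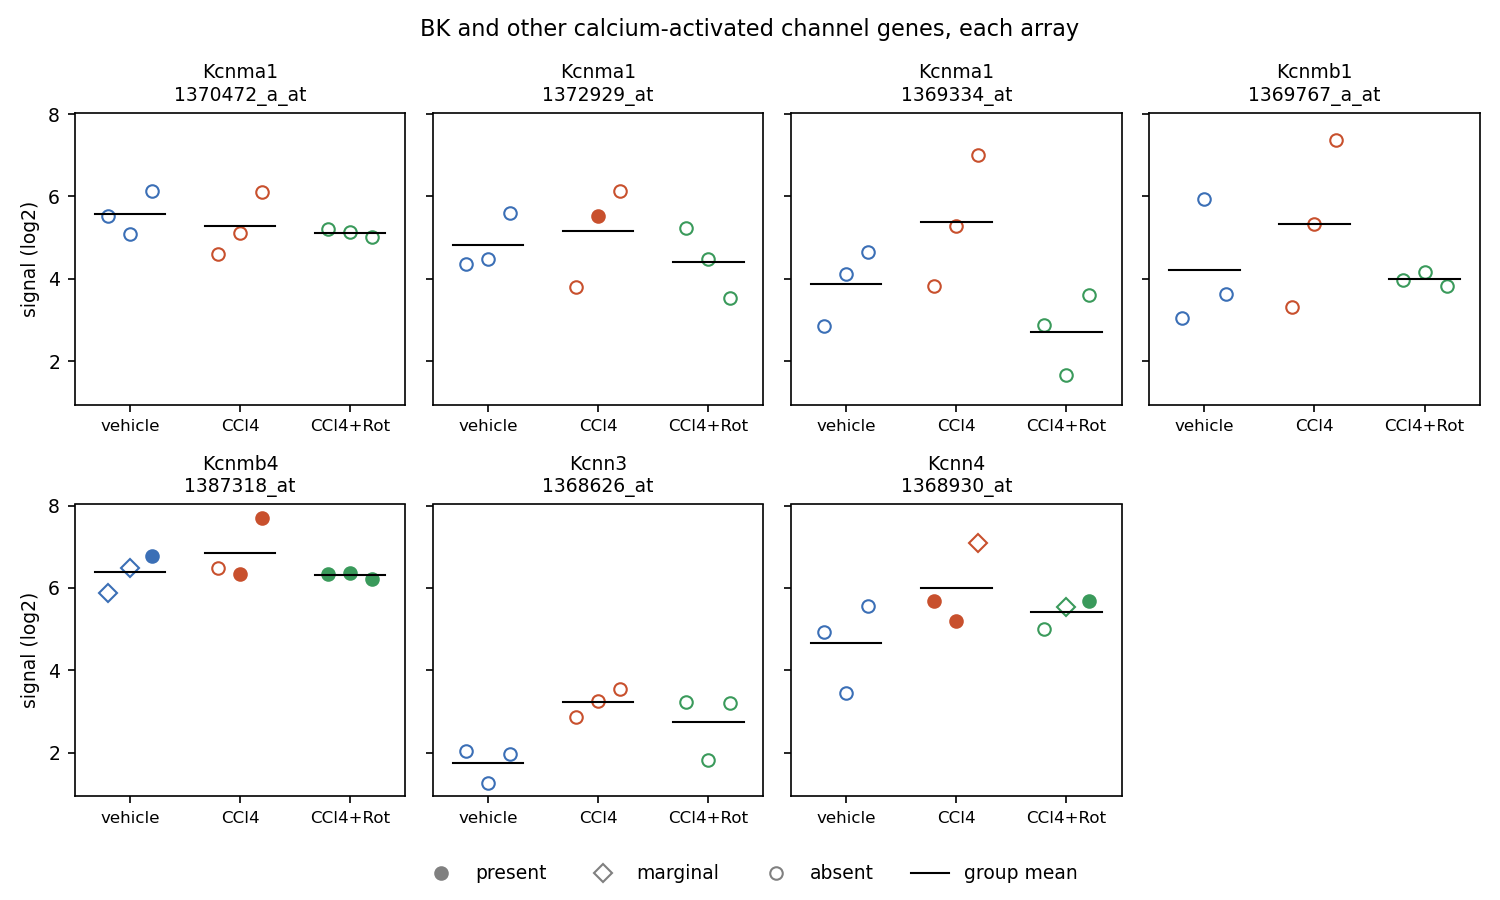
Log2 signal (y axis) on each array for the 3 probe sets of Kcnma1 and those of Kcnmb1, Kcnmb4, Kcnn3 and Kcnn4 in the 3 groups, with filled circles for present, diamonds for marginal and open circles for absent, and a line at the group mean. All but 1 of the Kcnma1 points are open, whereas the 3 CCl4+Rot points of Kcnmb4 are filled and lie between 6.21 and 6.37.

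The smaller calcium-activated channels, which open with calcium but not with voltage, were represented by Kcnn3 (chromosome 2) and Kcnn4 (chromosome 1), and Kcnn1 and Kcnn2 were not analysed here. Kcnn3, a small-conductance channel of nerve, muscle and endothelium, gave 2.04, 1.27 and 1.98 in vehicle rats, 2.86, 3.25 and 3.56 in CCl4 and 3.24, 1.83 and 3.21 in CCl4+Rot, absent throughout. The CCl4 and vehicle signals did not overlap. All of them but that of CCl4 replicate 3 lay below the lowest signal called present on the same array. On that replicate it was 3.56 against 2.31. As every call was absent, no fold is given.

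Kcnn4, the intermediate-conductance channel of lymphocytes, macrophages and secretory epithelia, gave 4.94, 3.46 and 5.57 in vehicle livers, 5.68, 5.20 and 7.09 in CCl4 and 5.01, 5.53 and 5.69 in CCl4+Rot. It was absent on all 3 vehicle arrays, present on 2 and marginal on 1 in CCl4, and present on 1 and marginal on 1 in CCl4+Rot. The highest vehicle signal lay above the lowest CCl4 signal, so the groups overlapped. For a gene measured in only 1 of the groups compared, a lower bound of the fold is given, from the mean of the group that measured it against that of the other, where no signal of the latter was taken below the floor of its own array, the lowest signal with a present call. All vehicle signals of Kcnn4 lay above those floors, so its values are plain ratios of group means and not minima. They do not take in the spread between rats. In CCl4, Kcnn4 exceeded vehicle 2.52-fold (limma adjusted p = 0.45), 1.66-fold without vehicle replicate 4 and 1.72-fold without CCl4 replicate 3. In CCl4+Rot it exceeded vehicle 1.69-fold (limma adjusted p = 0.873), or 1.11-fold without vehicle replicate 4. This value rests on the present call of CCl4+Rot replicate 6. From CCl4 to CCl4+Rot it differed by -0.58 (SE 0.647, limma adjusted p = 0.834), or -0.03 without CCl4 replicate 3. The summed linear signal of 6 cholangiocyte markers was 918.5 to 1072 on the vehicle arrays, 2642 to 5438 in CCl4 and 1293 to 2463 in CCl4+Rot, with Krt7 and Cldn7 absent on all arrays. Most of that difference was Spp1, osteopontin, which was absent on all vehicle arrays (5.92 to 6.42) and present on all CCl4 arrays (9.90 to 12.11). Without it the other 5 summed to 841.9 to 1011, 1029 to 1685 and 1016 to 1107 in the same order. Over the same groups 6 macrophage markers, all present on all arrays, summed to 10190 to 13910, 10890 to 13490 and 14610 to 17950. The largest part of each sum was Clec4f, whose log2 change between CCl4 and vehicle was -0.45. For Cd163, Cd14, Emr1, Csf1r and Cd68 that change was -0.02, 0.19, 0.38, 0.55 and 0.68, all with overlap. The sums of 7 T and NK cell markers, with Cd2, Cd3d and Cd8a absent throughout, were 507.9 to 713.6, 412.6 to 1105 and 750.7 to 1015. The 1105 was that of CCl4 replicate 3, on which Cd3e alone of these markers was called present. The part of these cells in the Kcnn4 signal was not tested.

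Among the inward rectifiers, Kcnj8, Kcnj15 and Kcnj5 were present on 6 or more arrays. Kcnj8 (chromosome 4), the Kir6.1 pore of the ATP-sensitive channel of vessels and pericytes, was present on all 9 arrays. It gave 7.86, 7.55 and 7.92 in vehicle rats, 7.99, 8.63 and 8.08 in CCl4 and 7.98, 8.46 and 8.32 in CCl4+Rot. Every array of both CCl4-treated groups lay above every vehicle array, by a narrow margin, and the treated groups overlapped each other. CCl4 exceeded vehicle by 0.46 (SE 0.238, limma adjusted p = 0.474) and CCl4+Rot exceeded vehicle by 0.47 (SE 0.238, limma adjusted p = 0.694). Quantile normalisation reduced the first of these to 0.18. The summed signal of the 10 stellate cell and myofibroblast markers, 8 of them present on all arrays and none absent from all, was 8458 to 13800 in vehicle livers, 19630 to 34790 in CCl4 and 29190 to 36700 in CCl4+Rot. Most of that sum was Col3a1, a collagen gene. Acta2, Tagln and Lrat overlapped between CCl4 and vehicle, and the other markers lay higher in CCl4 without overlap. The part of these cells in the Kcnj8 signal was not tested. Abcc9, the sulfonylurea receptor SUR2 that completes this channel, gave 9.18, 8.62 and 8.12 on the vehicle arrays, 7.33, 8.40 and 7.81 in CCl4 and 8.29, 8.55 and 8.56 in CCl4+Rot. It was absent on CCl4 replicate 3, its groups overlapped in all 3 comparisons, and it was lower by 0.79 on the log2 scale in CCl4 than in vehicle (log2 change -0.79, SE 0.350, limma adjusted p = 0.417).

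Kcnj15 (chromosome 11), the inward rectifier Kir4.2, showed the largest difference from vehicle among the channel genes present on 6 or more arrays. It gave 8.97, 8.68 and 8.96 in vehicle rats, 7.68, 6.02 and 7.79 in CCl4 and 6.85, 8.34 and 6.17 in CCl4+Rot. All 3 vehicle arrays lay above all 6 arrays of the treated groups, which spread widely and overlapped each other. It was absent on CCl4 replicate 3 and marginal on CCl4+Rot replicate 6, and present on the other 7 arrays. The mean was 8.87 ± 0.165 in vehicle livers, 7.16 ± 0.988 in CCl4 and 7.12 ± 1.11 in CCl4+Rot (SD, n = 3). The log2 difference was -1.70 for CCl4 minus vehicle (SE 0.641, limma adjusted p = 0.357) and -1.75 for CCl4+Rot minus vehicle (SE 0.641, limma adjusted p = 0.506), neither past the threshold. Without CCl4 replicate 3 the former was -2.02, and without CCl4 replicate 2 it was -1.14. A second Kcnj15 probe set was absent on all arrays, and averaging the pair gave -0.62. Between CCl4+Rot and CCl4 the difference was -0.04 (SE 0.641). The hepatocyte markers summed to 209900 to 239500 on the vehicle arrays, 166600 to 235900 in CCl4 and 232700 to 248300 in CCl4+Rot. The 166600 was that of CCl4 replicate 3, on which each of these markers was lowest of the CCl4 arrays. Alb, for example, gave 15.10, 15.06 and 14.04 in CCl4, and its log2 change from vehicle was -0.14, or 0.20 without that array. The part of hepatocyte number in the Kcnj15 signal was not tested.

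Kcnj5 (chromosome 8), a G-protein-gated inward rectifier of heart and adrenal gland, gave 5.63, 6.08 and 6.05 in vehicle rats, 5.49, 6.46 and 7.92 in CCl4 and 6.36, 5.87 and 5.19 in CCl4+Rot. It was absent on CCl4 replicate 1 and present elsewhere, and CCl4 replicate 3 was the only array above 6.46. CCl4 exceeded vehicle by 0.70 (SE 0.594, limma adjusted p = 0.646), or 0.06 without that array. The 12 other inward rectifiers were present on 5 arrays or fewer. Kcnj16, a partner of other Kir pores that is named here after its values were seen, was present on CCl4 replicate 1 alone. By the group means CCl4 exceeded vehicle 2.84-fold (limma adjusted p = 0.345), or 1.85-fold without CCl4 replicate 3. Its vehicle signals also lay above their floors, so this is a plain ratio and not a minimum. Kcnj11, the pore of the ATP-sensitive channel of pancreatic beta cells and muscle, was present on 2 vehicle arrays, 1 CCl4 array and no CCl4+Rot array. Its signals overlapped between the groups in every comparison.

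**Figure D3:**
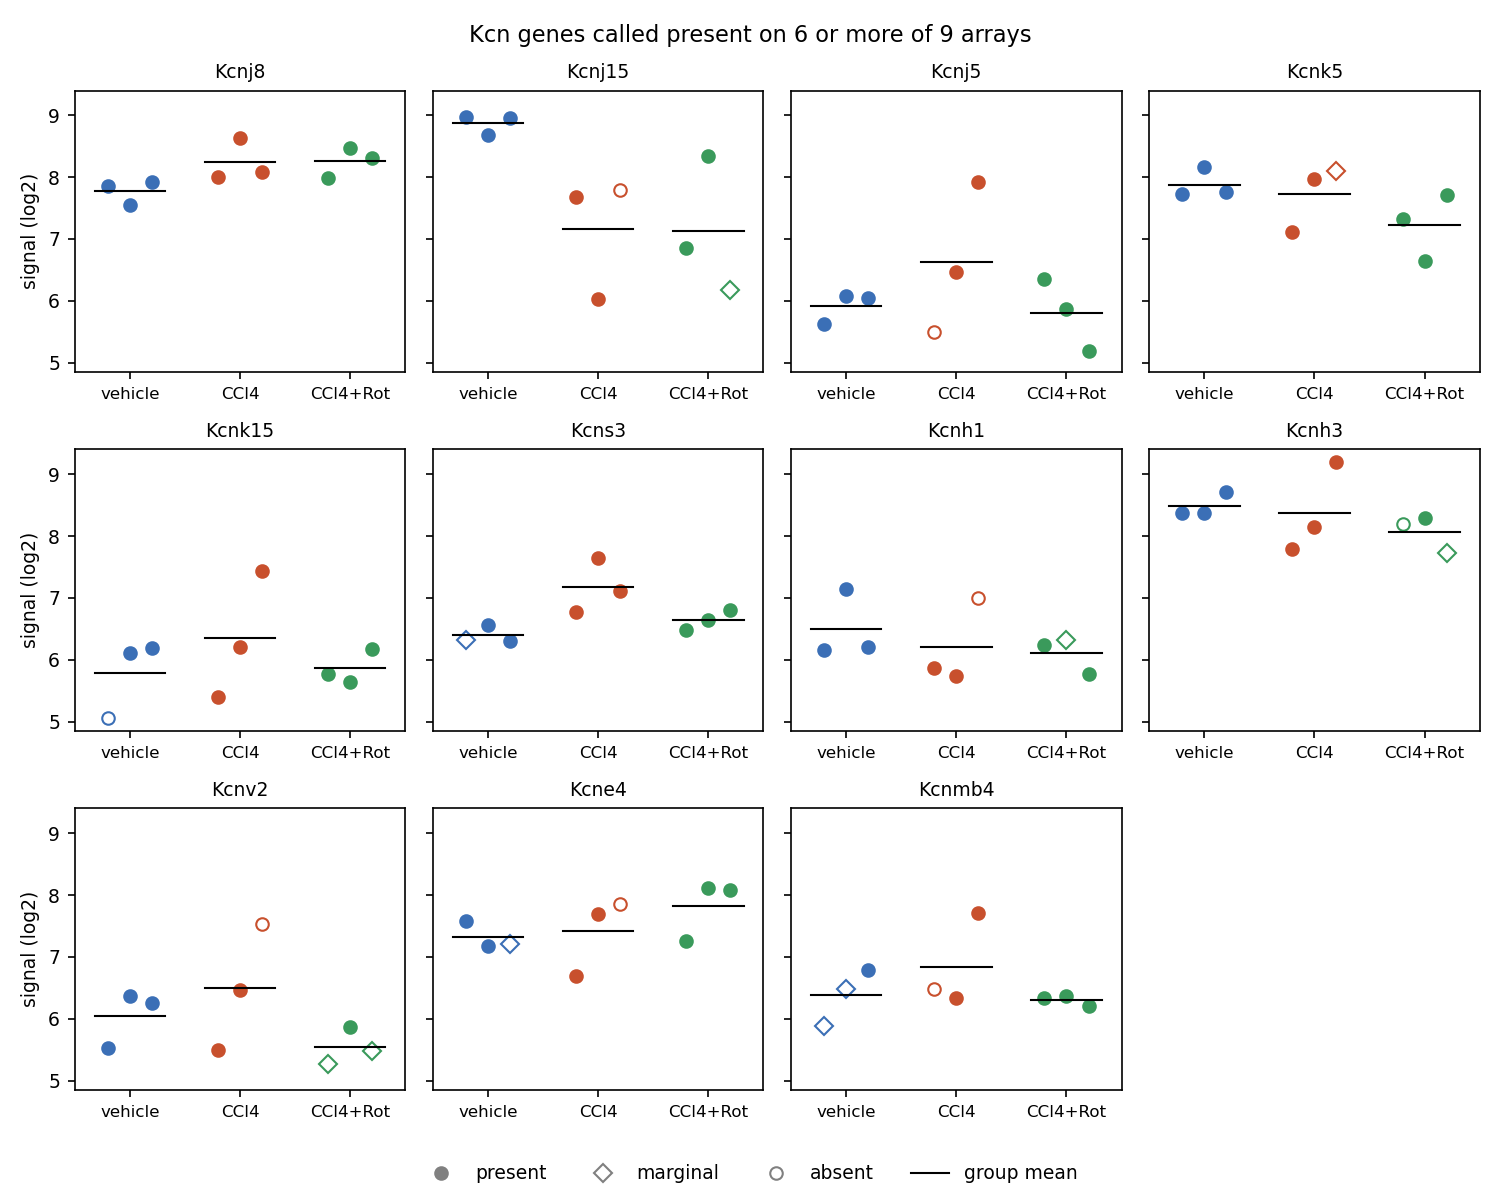
Log2 signal (y axis) on each array for 11 of the 12 Kcn genes called present on 6 or more of 9 arrays, with symbols for the call and a line at the mean of each group. Kcnj15 is the panel in which vehicle lies highest above both treated groups (8.68 to 8.97 against 6.02 to 8.34), and CCl4 replicate 3, the rightmost CCl4 point, is the highest of the 9 points in 5 of the 11 panels.

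Of the two-pore-domain channels, Kcnk5 and Kcnk15 were present on 6 or more arrays. Kcnk5 (chromosome 15), the alkaline-activated TASK-2 channel of kidney epithelium, gave 7.72, 8.16 and 7.75 in vehicle livers, 7.11, 7.98 and 8.09 in CCl4 and 7.33, 6.65 and 7.70 in CCl4+Rot, marginal on CCl4 replicate 3 and present elsewhere. CCl4+Rot lay just below vehicle without overlap, by 0.65 on the log2 scale (log2 change -0.65, SE 0.359, limma adjusted p = 0.735). It was also lower than CCl4 by 0.50 with overlap (log2 change -0.50, SE 0.359, limma adjusted p = 0.782), or 0.32 without CCl4 replicate 3 (-0.32). Kcnk15 (chromosome 3), TASK-5, which has not been shown to conduct on its own, gave 5.05, 6.12 and 6.19 on the vehicle arrays, 5.39, 6.21 and 7.43 in CCl4 and 5.77, 5.64 and 6.18 in CCl4+Rot. It was absent on vehicle replicate 3 alone, and its groups overlapped in every comparison. Kcnk4, the mechanically gated TRAAK channel, was absent on all vehicle and all CCl4+Rot arrays and present on CCl4 replicates 2 and 3, with 4.35, 5.45 and 7.22 in CCl4. Its signals overlapped between the groups in every comparison. Calls on 2 or 3 CCl4 arrays and no vehicle array were seen for 2 of 77 Kcn genes (2.6%, against 1.31% of all genes). With no CCl4+Rot array it was 1 (1.3%, against 0.654%).

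The voltage-gated subunits detected were mostly modifiers and channels best known from nerve tissue. Kcns3 (chromosome 6), an electrically silent subunit that slows Kv2 channels, had the smallest p of the detected genes in CCl4 against vehicle. It gave 6.32, 6.56 and 6.31 in vehicle rats, 6.77, 7.65 and 7.12 in CCl4 and 6.48, 6.64 and 6.81 in CCl4+Rot, marginal on vehicle replicate 3 and present on the other 8. All CCl4 arrays lay above all vehicle arrays, and of the CCl4+Rot arrays 1 lay within the vehicle range, 1 between the groups and 1 within the CCl4 range. CCl4 exceeded vehicle by 0.78 (SE 0.247, limma adjusted p = 0.298), or 0.81 without CCl4 replicate 3 and 0.33 after quantile normalisation. CCl4+Rot differed from CCl4 by -0.54 (SE 0.247, limma adjusted p = 0.752), or -0.57 without CCl4 replicate 3 and -0.20 after quantile normalisation. The adjusted p passed the threshold in neither comparison.

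Kcnh3, an Elk-type channel of forebrain, gave 8.38, 8.37 and 8.71 on the vehicle arrays, 7.79, 8.14 and 9.19 in CCl4 and 8.19, 8.30 and 7.72 in CCl4+Rot, absent on CCl4+Rot replicate 4 and marginal on CCl4+Rot replicate 6. CCl4+Rot lay below vehicle without overlap (log2 change -0.42, SE 0.367, limma adjusted p = 0.878). The table places this probe set on chromosome X and RefSeq places the gene on another chromosome, so which transcript it reads is uncertain. Kcnh1 (chromosome 13), the Eag-type channel, gave 6.16, 7.14 and 6.20 in vehicle rats, 5.86, 5.74 and 7.00 in CCl4 and 6.25, 6.32 and 5.78 in CCl4+Rot. It was absent on CCl4 replicate 3 and marginal on CCl4+Rot replicate 5, and its groups overlapped in each comparison.

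Kcnv2, a silent subunit of photoreceptors that joins Kv2 pores, gave 5.53, 6.37 and 6.26 in vehicle livers, 5.49, 6.47 and 7.54 in CCl4 and 5.27, 5.87 and 5.48 in CCl4+Rot. The call was absent on CCl4 replicate 3, where the signal was highest, and marginal on CCl4+Rot replicates 4 and 6, and the groups overlapped. Kcnh7, an Erg-type channel, gave 5.25, 5.97 and 5.57 on the vehicle arrays, 5.77, 5.78 and 8.13 in CCl4 and 5.98, 5.14 and 3.00 in CCl4+Rot. It was present on all 3 vehicle arrays, on 1 CCl4 array and on no CCl4+Rot array. CCl4 exceeded vehicle by 0.96 (SE 0.885, limma adjusted p = 0.674), or 0.17 without CCl4 replicate 3. By the group means Kcnh7 was at least 3.1-fold lower in CCl4+Rot than in CCl4 (limma adjusted p = 0.752), at least 1.8-fold without CCl4 replicate 3. This bound rests on the present call of CCl4 replicate 1. The groups overlapped, as CCl4+Rot replicate 4 (5.98) lay above CCl4 replicates 1 and 2 (5.77 and 5.78). Against vehicle Kcnh7 was at least 1.6-fold lower in CCl4+Rot by the group means (limma adjusted p = 0.897), or 1.02-fold without CCl4+Rot replicate 6. These groups overlapped too. Kcna5, a Kv1 channel of vascular muscle and atrium, was present on 2 vehicle arrays and on none of the 6 treated ones. Its signals overlapped in every comparison (limma adjusted p = 0.799 for CCl4 and 0.968 for CCl4+Rot against vehicle). Calls on 2 or 3 vehicle arrays and no CCl4 array were seen for 2 of 77 Kcn genes (2.6%, against 0.709% of all genes). With no CCl4+Rot array it was 3 (3.9%, against 0.57%).

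Kcne4 (chromosome 9), an auxiliary protein that inhibits Kcnq1 and other Kv channels, gave 7.57, 7.17 and 7.21 in vehicle rats, 6.70, 7.69 and 7.85 in CCl4 and 7.26, 8.11 and 8.08 in CCl4+Rot. It was present on all CCl4+Rot arrays, marginal on vehicle replicate 5 and absent on CCl4 replicate 3. CCl4+Rot exceeded vehicle by 0.50 (SE 0.369, limma adjusted p = 0.836) and CCl4 by 0.40 (SE 0.369, limma adjusted p = 0.811), or 0.62 without CCl4 replicate 3, and the groups overlapped.

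No Kcn gene passed an adjusted p below 0.05 with a change of at least 1.5-fold in any comparison by limma, and none passed an adjusted p below 0.05 by the methods' t-test. Over all genes the share that passed the limma threshold was 0% for CCl4 against vehicle, 0% for CCl4+Rot against CCl4 and 0.0209% for CCl4+Rot against vehicle. An exact two-sided permutation test of 3 arrays against 3 cannot give a p under 0.1, and all p-values measure the spread between these rats. At an unadjusted p below 0.05, CCl4 against vehicle had 7 Kcn genes higher (9.09%, against 9.49% of all genes) and 2 lower (2.6%, against 4.01%). The 7 included Kcnd1, Kcnj12, Kcnj16, Kcnn3, Kcns2 and Kcns3, and 5 of the 7 were present on no array, and the 2 were Kcnj15 and Kcnk2, the latter present on no array. CCl4 and vehicle did not overlap for 11 genes with CCl4 higher (14.3%, against 12.5% of all genes) and 3 with CCl4 lower (3.9%, against 8.53%). These shares lay near or below those of all genes. After quantile normalisation 3 genes were higher and 4 lower at that p, and after centring on the median 4 and 2.

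Between CCl4+Rot and CCl4, 1 Kcn gene was higher at an unadjusted p below 0.05 (1.3%, against 2.10% of all genes) and 6 were lower (7.79%, against 3.40%). The higher gene was Kcnk2, the mechanically gated TREK-1 channel, and the lower ones were Kcnc2, Kcnd3, Kcng3, Kcnk3, Kcnq5 and Kcns2. The same genes were those without overlap, 1 higher (against 5.57% of all genes) and 6 lower (against 5.60%). By their brightest probe set, Kcnk3 was present on 1 array and the other 6 of these 7 on none, so no fold is given and the lower share holds no gene that liver RNA clearly showed. Between CCl4+Rot and vehicle, 1 gene was higher at that p (Kcnd1, 1.3%, against 7.46% of all genes) and 1 lower (Kcnj15, 1.3%, against 2.33%). These groups did not overlap for 2 genes with CCl4+Rot higher (2.6%, against 15.2%), Kcnd1 and Kcnj8, and for 4 with CCl4+Rot lower (5.19%, against 9.47%), Kcnd3, Kcnh3, Kcnj15 and Kcnk5. The 3 comparisons share arrays, so their values are set side by side and not counted as separate support.

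Taken as a family, the Kcn genes read higher in CCl4, and that reading rested on 1 array. The median log2 difference between CCl4 and vehicle was 0.70 over the 77 genes, with 61 higher and 16 lower, against a median of 0.13 over the other 14300 genes. Without CCl4 replicate 3 it was 0.01, with 39 higher and 38 lower, against 0.03 over the other genes. Between CCl4+Rot and CCl4 the median was -0.64, with 11 higher and 66 lower, and -0.05 (35 higher and 42 lower) without that array, against -0.05 and 0.01 over the other genes. Between CCl4+Rot and vehicle, which does not involve the array, the median was -0.06 with 37 higher and 40 lower. With the array kept, quantile normalisation gave 0.30 and -0.31 for the comparisons that use it, and centring on the median 0.35 and -0.39. The other genes are mostly detected ones, unlike the Kcn genes. Among genes present on no array, the median between CCl4 and vehicle was 0.78 for 44 Kcn genes and 0.55 for 3601 others. Between CCl4+Rot and CCl4 these medians were -0.73 and -0.52, so undetected genes outside the family moved the same way.

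CCl4 replicate 3 had the highest signal of the 9 arrays for 58 of the 77 Kcn genes (75.3%), against 38.5% of other genes. Among the 44 present on no array it was highest for 32 (72.7%, against 61.2% of other such genes), where the median Kcn signal was 6.61 on it and 4.23 to 5.24 on the other 8 arrays. Among the 12 present on 6 or more arrays it was highest for 6 (50%, against 24.7%), and their median difference between CCl4 and vehicle went from 0.32 to -0.10 without it. Over the 8978 other genes present on 6 or more arrays that median was 0.02 with the array and 0.01 without it. The array had the fewest present calls and the highest median signal of the series, as given above, and which step of the experiment made it differ was not tested.

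**Figure D4:**
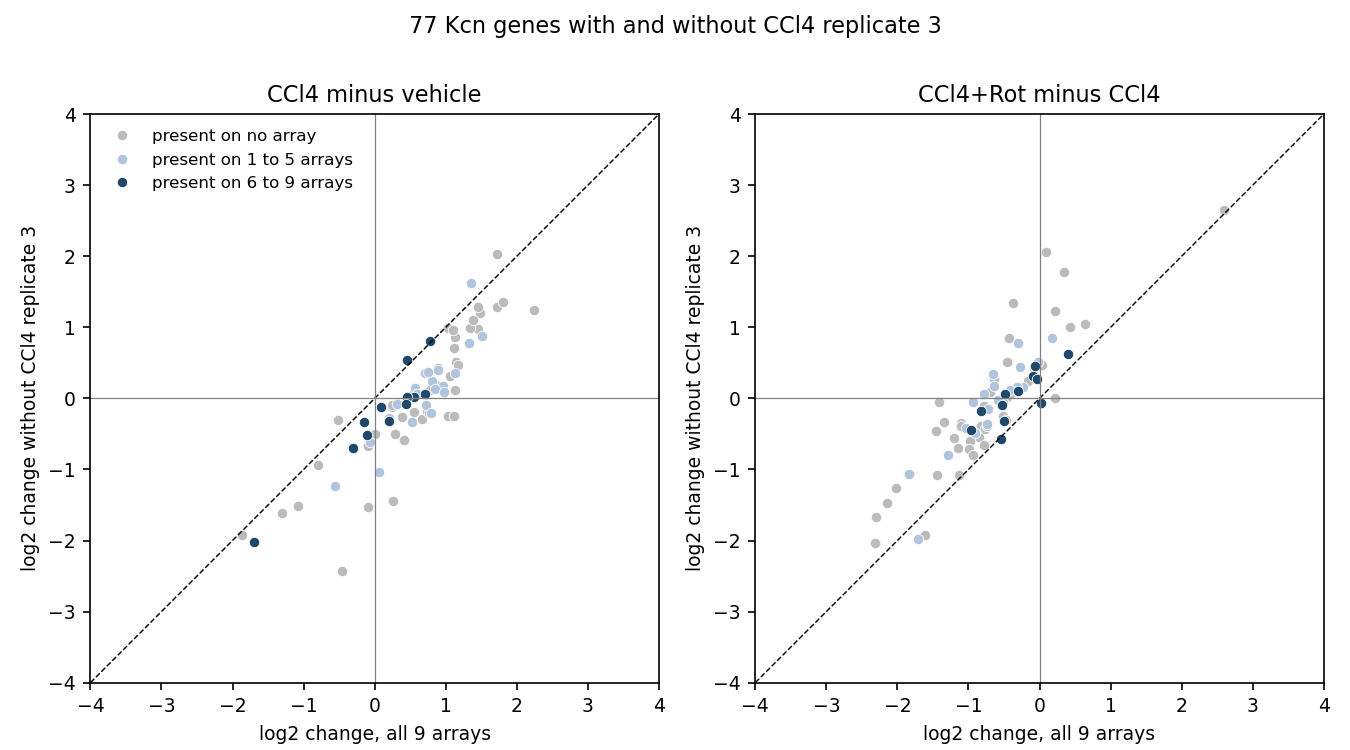
Log2 change of each of the 77 Kcn genes over all 9 arrays (x axis) and without CCl4 replicate 3 (y axis), for CCl4 minus vehicle (left) and CCl4+Rot minus CCl4 (right), shaded by the number of arrays with a present call, with equality dashed. Most points lie below the dashed line on the left and above it on the right, and the median moves from 0.70 to 0.01 and from -0.64 to -0.05.

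Genes that act with these channels were read from lists written for them. Of the 12 listed BK gamma subunits and other channel partners, 9 were measured, 5 were present on all arrays (among them Lrrc26, Abcc8 and Amigo1) and none was called in any comparison. Lrrc26, the gamma subunit that lets BK open near the resting potential, gave 6.05, 6.61 and 6.69 in vehicle livers, 5.93, 5.74 and 7.98 in CCl4 and 6.49, 6.49 and 6.03 in CCl4+Rot. It was thus detected where the pore gene Kcnma1 was not, and its groups overlapped. The calcium and cyclic GMP list (store release, calcium entry and guanylate cyclase genes that feed calcium-activated channels) had 19 of 21 genes measured, 9 present on all arrays and none called. At an unadjusted p below 0.05 it had 1 gene higher and 0 lower in CCl4 against vehicle, 1 and 0 in CCl4+Rot against CCl4, and 2 and 0 in CCl4+Rot against vehicle, where the shares of all genes higher were 9.49%, 2.10% and 7.46%. Gucy1a3, a subunit of the nitric oxide receptor whose product cyclic GMP opens BK through protein kinase G, gave 9.78, 10.02 and 9.69 on the vehicle arrays, 9.34, 9.98 and 9.69 in CCl4 and 10.39, 10.36 and 10.47 in CCl4+Rot. All CCl4+Rot arrays lay above all others, by 0.74 over CCl4 (SE 0.204, limma adjusted p = 0.65, 0.75 without CCl4 replicate 3) and 0.58 over vehicle (SE 0.204, limma adjusted p = 0.489). Gucy1b3, from the same list and also present on all 9 arrays, overlapped in every comparison. It was 0.08 higher in CCl4+Rot than in CCl4 (SE 0.296, limma adjusted p = 0.956).

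The list of pumps that build the potassium gradient had 9 of 19 listed pump and cotransporter genes present on all 9 arrays, near the share of all genes (49.1%), where 2 of 77 Kcn genes (2.6%) were. None was called by limma. At an unadjusted p below 0.05, 4 were higher and 2 lower in CCl4 against vehicle (where 9.49% and 4.01% of all genes were), 1 and 1 in CCl4+Rot against CCl4 (2.10% and 3.40% of all genes), and 3 and 1 in CCl4+Rot against vehicle (7.46% and 2.33% of all genes). Atp1b1, the beta subunit of the sodium-potassium pump, gave 10.26, 10.62 and 10.22 in vehicle livers, 11.06, 11.37 and 10.68 in CCl4 and 11.28, 10.93 and 11.32 in CCl4+Rot, both treated groups above vehicle (by 0.67 in CCl4, SE 0.235, limma adjusted p = 0.333, and by 0.81 in CCl4+Rot, SE 0.235, limma adjusted p = 0.383).

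The FXYD regulators of the pump lay on both sides of their vehicle levels. Fxyd5 gave 8.22, 7.28 and 7.42 on the vehicle arrays, 8.57, 9.33 and 8.84 in CCl4 and 9.09, 8.83 and 9.17 in CCl4+Rot. It exceeded vehicle by 1.27 in CCl4 (SE 0.308, limma adjusted p = 0.231) and by 1.39 in CCl4+Rot (SE 0.308, limma adjusted p = 0.239), without overlap. Fxyd2, known from kidney and bile duct epithelium, gave 8.45, 6.27 and 7.62 in vehicle rats, 8.86, 10.05 and 8.93 in CCl4 and 8.94, 8.91 and 9.28 in CCl4+Rot, 1.84 above vehicle in CCl4 (SE 0.564, limma adjusted p = 0.289). Fxyd1, or phospholemman, gave 11.31, 11.35 and 11.47 in vehicle livers, 10.79, 10.80 and 10.63 in CCl4 and 11.13, 10.88 and 10.77 in CCl4+Rot, with a difference of -0.63 between CCl4 and vehicle (SE 0.162, limma adjusted p = 0.246). The stellate marker sum given above and Spp1 were higher in both treated groups than in vehicle over the same arrays, and the part of other cell types in these pump genes was not tested.

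**Figure D5:**
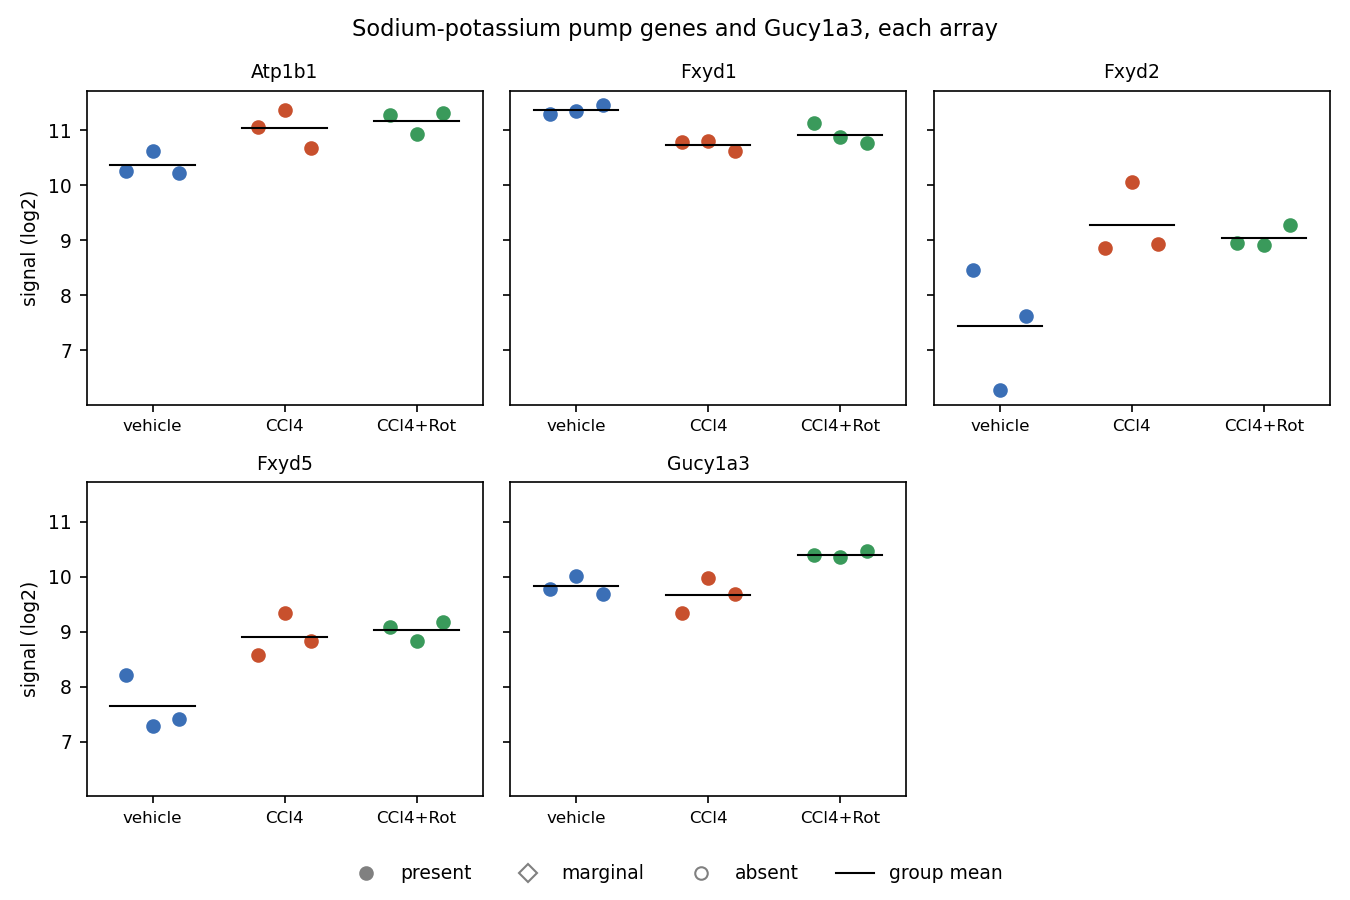
Log2 signal (y axis) on each array for 4 sodium-potassium pump genes and Gucy1a3, with filled circles for present calls and a line at each group mean. All points are filled. Fxyd5, Fxyd2 and Atp1b1 lie higher in CCl4 and CCl4+Rot than in vehicle, Fxyd1 lower, and Gucy1a3 lies highest in CCl4+Rot (10.36 to 10.47).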

How the data were processed

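Biotin-labelled cRNA from total liver RNA was hybridised to Affymetrix rat expression arrays. The authors deposited log2 signals and detection calls for 31099 probe sets, scaled so that the antilogs had a 2% trimmed mean of 500 on each array. Per the labels, MAS5 and the affy package were used, and versions and the genome build of the annotation were not given in the sources used here.

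The 57 control probe sets were left out, and 31042 were fitted in limma 3.58.1 under R 4.3.3, with a mean for each group as the only terms. Benjamini-Hochberg adjustment ran over all of them. A call needed an adjusted p under 0.05 together with a change of 1.5-fold or more. The methods give that fold, and the adjustment was chosen here. The deposited values were not normalised again. Shares of genes used the brightest probe set of each of the 14377 genes. The genes named were the BK and small calcium-activated channel genes, the genes present on 6 or more arrays, and the 5 with the smallest p per comparison among genes detected in either group. Some genes that this rule or the lists select are not reported here. A few others, including those in counts, Kcnj16, Kcnj11, Kcnk4, Kcna5, the partner genes and the pump genes, were named after their values were seen. The members, the gene lists and the tests were chosen with earlier results of these data known. The alternatives included normalisation, filters on low signals, the variance model (statmod 1.5.0), the methods' t-test, the animal number as a block, the choice of probe set and each array left out. The fit was tested on simulated data. The number of arrays limits the precision.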

Additional observations from a re-analysis of the deposited data

How the results depend on the processing

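The number of Kcn genes at an unadjusted p below 0.05 was 9, 7 and 2 for CCl4 against vehicle, CCl4+Rot against CCl4 and CCl4+Rot against vehicle. With only probe sets present on at least 3 arrays (23 Kcn genes) it was 2, 2 and 1, from a new fit of fewer probe sets. For CCl4+Rot against CCl4, the 7 genes counted before were present on at most 1 array by their brightest probe set. The 2 found there were therefore other genes or other probe sets. With the lowest 30% of probe sets left out (40 genes) the number was 5 and 4 for the first 2 comparisons. The methods' t-test gave 3 for CCl4+Rot against CCl4 and 1 for CCl4+Rot against vehicle. For CCl4+Rot against vehicle it was 6 after quantile normalisation (1 higher), 4 after centring on the median, 1 after centring on probe sets present on all arrays, 1 with trend and robust variance, 4 with only the 2 groups compared, and 1 with the animal number as a replicate block. The animal numbers were not shown to pair the rats (correlations of deviations -0.0896 to -0.00466), and the block moved no other count of calls by over 1.5 times. Leaving out 1 array gave 6 to 16, 6 to 15 and 0 to 3 (16 without CCl4 replicate 2, 14 and 15 without CCl4 replicate 1, 0 without vehicle replicate 3 or CCl4+Rot replicate 6). The cause of these differences was not tested. No alternative gave an adjusted call among Kcn genes. The 13 genes detected became 21 with present calls on 2 of 3 arrays. Kcnmb4 in CCl4+Rot against vehicle, -0.07, ranged from -0.32 to 0.13 with 1 array left out and changed sign without vehicle replicate 5. For the genes described, 13 results at other settings lost an unadjusted p below 0.05 (among them Kcnj15 and Kcns3 in CCl4 against vehicle) and 7 gained it. A call of absent and the number of arrays limit what can be seen of low genes.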

Other observations

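Of the probe sets that name a Kcn gene together with a second, uncharacterised gene, 4 were outside the rule and could not be assigned to the channel, and 2 of them name Kcnk6, a two-pore-domain background channel. The brighter of these gave 7.06, 7.44 and 7.39 in vehicle, 8.09, 8.09 and 8.46 in CCl4 and 7.90, 7.83 and 7.01 in CCl4+Rot. It was marginal on 1 vehicle array and present on 2 CCl4 arrays and 1 CCl4+Rot array, and the CCl4 arrays lay above both other groups without overlap (CCl4 minus vehicle 0.92, limma adjusted p = 0.284). The other was absent on every array and gave 6.65, 5.99 and 7.28 in vehicle rats, 7.56, 8.16 and 7.82 in CCl4 and 7.86, 7.23 and 7.99 in CCl4+Rot, where CCl4 and CCl4+Rot overlapped.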
